A study of Mus musculus with 9 samples.

Results

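The receptors for glial cell line-derived neurotrophic factor (GDNF) and for the neurotrophins were followed through 7 genes, Ret, Gfra1, Gfra2, Ntrk2, Ntrk3, Ngfr and Bdnf, which were taken from the 47729 gene rows of the count files by their Ensembl identifiers. All 7 had a row and all 7 were counted often enough to be tested among 17671 genes. The libraries came from dissected midbrain of C57/Bl6 mice at 180 days, all of which carried Pitx3-Cre/+ and Rosa-lox-stop-lox-Yfp. The genotypes were Dot1l(+/+), the control, Dot1l(fl/+) with 1 floxed allele and Dot1l(fl/fl) with 2, and each genotype had 3 libraries. Dot1l encodes the histone methyltransferase that methylates lysine 79 of histone H3. Cre was expressed from the Pitx3 locus, which is active in post-mitotic dopaminergic (DA) neurons, and removes exon 5 of Dot1l. Each library pooled several dissections, so a replicate was a pool of animals, and the p-values measure the spread between pools. The text deposited with the series speaks of sorted cells at E15.75, whereas the label of every library gives P180 and dissected midbrain. The dissection also held cells without Cre.

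GDNF and its relatives bind a co-receptor of the Gfra family, which is anchored to the cell surface, and the complex then activates the receptor tyrosine kinase Ret. Neurotrophins bind the Trk receptor tyrosine kinases, of which TrkB (Ntrk2) prefers Bdnf and TrkC (Ntrk3) prefers neurotrophin 3, while all of them can bind the p75 receptor (Ngfr), which has no kinase. Both systems signal through adaptor proteins to the Ras-MAPK and PI3K-Akt pathways, and both are known for supporting the survival, growth and maintenance of midbrain DA neurons.

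The libraries held 16422135 to 28403218 counts, and no pair of libraries was identical. Levels are given as CPM, a library's counts scaled to a common total, and were corrected with TMM factors between 0.988 and 1.01. Dot1l itself was at 80.2 to 85.2 CPM in controls, 60.6 to 84.2 CPM in Dot1l(fl/+) and 73.9 to 82.9 CPM in Dot1l(fl/fl), but counts per gene include all exons outside exon 5 and the cells without Cre, so these levels do not measure the deletion. The labels call the tissue midbrain DA neurons. A list of 12 DA neuron markers summed to 503 to 731 CPM, 8 oligodendrocyte markers to 10508 to 12055 CPM and 8 astrocyte markers to 4049 to 4651 CPM, so the libraries held the RNA of many cell types. A pair of libraries stood apart. The hypothalamic gene Pmch, which encodes melanin-concentrating hormone, was at 99.4 and 49.6 CPM in Dot1l(fl/+) replicates 1 and 3 and at 0.472 to 7.24 CPM in the other 7 libraries. A list of 6 hypothalamic markers summed to 125 and 58.0 CPM in these libraries and to 1.67 to 9.51 CPM elsewhere. Dot1l(fl/+) was also fitted without them, which leaves 1 library of this genotype that is assumed to vary like the other groups, and the share of all genes with an unadjusted edgeR p-value under 0.05 against controls was then 16.3%, with 7.65% higher and 8.68% lower.

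Levels per length were compared within controls, because counts grow with the length of a transcript. Ntrk2 had the highest level of the 7 genes, with 37.4 ± 0.742 CPM per kilobase of all annotated exons (SD, n = 3). Ret (19.0 ± 1.73), Gfra1 (13.9 ± 0.361), Gfra2 (11.0 ± 0.317), Ntrk3 (7.39 ± 0.115) and Bdnf (5.57 ± 0.397) followed on this scale, and Ngfr was lowest with 0.999 ± 0.092. The control libraries of neighbours in this order did not overlap. Among 17606 genes with a length, 93.6% were below Ntrk2, 84.9% below Ret, 78.8% below Gfra1, 73.2% below Gfra2, 63.0% below Ntrk3, 55.1% below Bdnf and 22.8% below Ngfr.

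The place of Ntrk3 depended on the length used. Its annotated exons cover 30170 bases, whereas Ntrk3-206, the transcript with its longest coding part, has 2774 bases. Per kilobase of that transcript Ntrk3 was at 80.4 ± 1.26 CPM, beside 82.5 ± 1.64 for Ntrk2, 23.5 ± 2.14 for Ret, 16.4 ± 0.426 for Gfra1, 11.3 ± 0.324 for Gfra2 and 8.86 ± 0.633 for Bdnf (SD, n = 3). On this scale the control libraries of Ntrk2 (81.9, 81.3 and 84.4) and Ntrk3 (79.1, 80.6 and 81.5) overlapped, and Ntrk2 was above Ntrk3 within each of the 3 libraries. Ntrk2 and Ntrk3 produce full-length receptors and truncated forms without the kinase, and the counts per gene do not separate them.

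**Figure D1:**
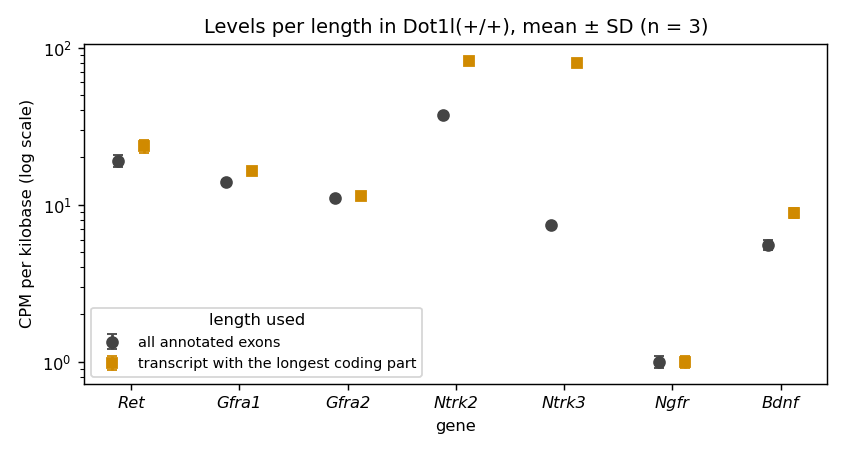
Levels of the 7 genes in the 3 Dot1l(+/+) libraries as CPM per kilobase on a log axis, with points for the mean and bars for the SD, computed with the length of all annotated exons (circles) or of the transcript with the longest coding part (squares). Ngfr lies at 0.999 under both lengths, and Ntrk3 moves from 7.39 to 80.4.

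None of the 7 genes passed an adjusted p-value of 0.05 (edgeR quasi-likelihood test, Benjamini-Hochberg adjustment over all genes) between any genotypes, and neither did any other gene (0% of 17671). Unadjusted p-values under 0.05 were found for 2 of the 7 genes in Dot1l(fl/+) against controls (Ret and Ntrk3, both lower), beside 8.39% of all genes, 4.09% lower and 4.3% higher. They were found in Dot1l(fl/fl) against controls for 2 of 7 (Ret lower, Bdnf higher), beside 3.93% of all genes, 1.72% lower and 2.21% higher. Between the floxed genotypes they were found for 2 of 7 (Ntrk3 and Bdnf, both higher in Dot1l(fl/fl)), beside 6.48% of all genes, 2.87% lower and 3.6% higher. These shares correspond to 1483, 694 and 1145 genes. DESeq2 on all 9 libraries gave adjusted p-values under 0.05 for 7, 3 and 14 genes in the 3 comparisons and for none of the 7 receptor and ligand genes, and it gave the same pairs of genes under an unadjusted 0.05.

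**Figure D2:**
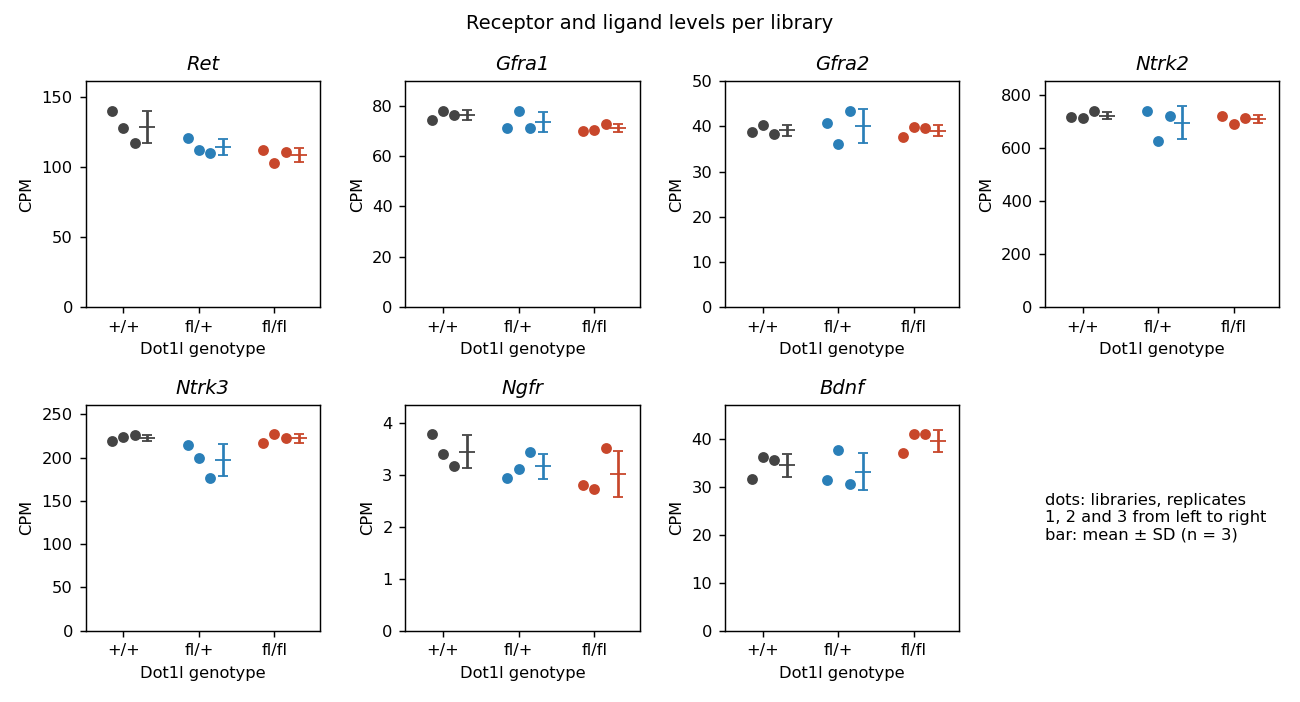
CPM of the 7 genes in each library by Dot1l genotype, each axis starting at 0, with dots for replicates 1, 2 and 3 from left to right and bars for the mean ± SD (n = 3). The Ret level lies between 117 and 140.3 in controls and between 103 and 112 in Dot1l(fl/fl), and the Ntrk3 level of 177 in Dot1l(fl/+) replicate 3 lies below all other libraries.

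Ret (ENSMUSG00000030110, GRCm38 chr6:118151745-118197718, minus strand, 2 annotated transcripts) encodes the signalling kinase of the GDNF receptor. It was at 140.3, 128 and 117 CPM in controls, at 121, 112 and 110.2 CPM with 1 floxed allele, and at 112, 103 and 111 CPM with 2. All 3 Dot1l(fl/fl) libraries lay below every control, whereas the Dot1l(fl/+) libraries overlapped the controls. The means were 128 ± 11.7, 114 ± 5.82 and 108 ± 4.88 CPM (SD, n = 3).

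Against controls the log2 fold change of Ret was −0.24 in Dot1l(fl/fl), or −15.5% (SE 0.067, 95% interval −0.39 to −0.10, edgeR unadjusted p = 0.00299, adjusted p = 0.999). By its unadjusted p-value Ret was at rank 30 of 17671 genes. In Dot1l(fl/+) the log2 fold change was −0.17, or −10.8% (SE 0.0666, 95% interval −0.31 to −0.02, edgeR unadjusted p = 0.0268, adjusted p = 0.554). Between Dot1l(fl/fl) and Dot1l(fl/+) it was −0.08 (95% interval −0.22 to 0.07, edgeR unadjusted p = 0.271).

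In a trend over 0, 1 and 2 floxed alleles, the slope of the Ret level was −0.12 on the log2 scale per allele, or −8.08% (SE 0.0338, edgeR unadjusted p = 0.00288, adjusted p = 0.999, rank 19 of 17671). With groups of equal size, such a slope rests almost wholly on the difference between Dot1l(fl/fl) and controls, and Dot1l(fl/+) bears mainly on the spread. It is therefore no separate evidence of a stepwise change per allele. An unadjusted p-value under 0.05 in this trend was found for Ret alone among the 7 genes, beside 3.24% of all genes, 1.51% lower and 1.73% higher. The slope of Bdnf was 0.10 (edgeR unadjusted p = 0.0593), although its log2 fold change with 1 floxed allele was −0.06. Its p-value was under this limit, beside that of Ret, with the replicate number as a block (0.10, edgeR unadjusted p = 0.0385, adjusted p = 0.999), without the filter on low counts (0.10, edgeR unadjusted p = 0.0369), without control replicate 2 (0.13, edgeR unadjusted p = 0.0301), without control replicate 3 (0.12, edgeR unadjusted p = 0.0416), when replicate 3 of Dot1l(fl/+) was left out (0.10, edgeR unadjusted p = 0.0344) and with replicate 2 as its lone library (0.10, edgeR unadjusted p = 0.019). The control library with the highest level bore on the size of the differences. Without control replicate 1 the value in Dot1l(fl/fl) was −0.17 (edgeR unadjusted p = 0.0241) and that in Dot1l(fl/+) was −0.10 (edgeR unadjusted p = 0.173), and without control replicate 3 the value in Dot1l(fl/fl) was −0.31 (edgeR unadjusted p = 0.000499). The difference in Dot1l(fl/+) also had an unadjusted p-value above 0.05 without control replicate 2 (−0.16, edgeR unadjusted p = 0.0621), without Dot1l(fl/+) replicate 2 (−0.15, edgeR unadjusted p = 0.0563) and without Dot1l(fl/+) replicate 3 (−0.14, edgeR unadjusted p = 0.0837). Without both Dot1l(fl/+) libraries with hypothalamic genes it was −0.20 (edgeR unadjusted p = 0.0474). When genes with low counts were not filtered out, Ret passed an adjusted p-value of 0.05 in Dot1l(fl/fl) (edgeR adjusted p = 0.0197, log2 fold change −0.24), and over all alternatives its adjusted p-value there ranged from 0.0197 to 1.0.

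DA neuron markers were lower in the same libraries. All 12 were detected and all 12 had a log2 fold change below 0 in Dot1l(fl/fl), with a median of −0.44, and for 9 of them edgeR gave an unadjusted p-value under 0.05, beside 3.93% of all genes, 1.72% lower. Their summed level was 661 to 731 CPM in controls, 525 to 672 CPM in Dot1l(fl/+) and 503 to 539 CPM in Dot1l(fl/fl). In bulk tissue, fewer cells of a type and less RNA per cell cannot be told apart, and the part of the DA neurons in the Ret difference was not tested.

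Gfra1 (ENSMUSG00000025089, GRCm38 chr19:58235604-58455909, minus strand) encodes the co-receptor that prefers GDNF. It was at 74.2, 78.1 and 76.2 CPM in controls, at 71.1, 78.0 and 71.2 CPM with 1 floxed allele, and at 69.8, 70.4 and 72.8 CPM with 2. The Dot1l(fl/fl) libraries all lay below the controls by a narrow margin. For Dot1l(fl/fl) the log2 fold change was −0.10, or −6.81% (SE 0.0541, 95% interval −0.22 to 0.01, edgeR unadjusted p = 0.0819, adjusted p = 0.999), and the unadjusted p-value was under 0.05 when Dot1l(fl/+) replicate 2 was left out (edgeR unadjusted p = 0.0498) and when Dot1l(fl/+) replicates 1 and 3 were left out (edgeR unadjusted p = 0.0466). In Dot1l(fl/+) the log2 fold change was −0.05 (95% interval −0.17 to 0.06, edgeR unadjusted p = 0.344). The antisense gene Gm16277 overlaps Gfra1 and was at 0 to 0.267 CPM.

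Gfra2 (ENSMUSG00000022103, GRCm38 chr14:70890120-70979838, plus strand) encodes the co-receptor that prefers neurturin. It was at 38.7, 40.4 and 38.2 CPM in controls, at 40.7, 36.0 and 43.5 CPM with 1 floxed allele, and at 37.6, 39.9 and 39.7 CPM with 2. The 3 genotypes overlapped. The estimated log2 fold change from controls was −0.002 for Dot1l(fl/fl) with a 95% interval from −0.16 to 0.16, and 0.04 for Dot1l(fl/+) with a 95% interval from −0.12 to 0.19 (edgeR unadjusted p = 0.978 and 0.631).

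Ntrk2 (ENSMUSG00000055254, GRCm38 chr13:58806569-59133970, plus strand, 10 annotated transcripts) encodes TrkB, the receptor of Bdnf. It was at 716, 711 and 738 CPM in controls, at 741, 625 and 720.1 CPM with 1 floxed allele, and at 719, 689.9 and 714 CPM with 2. The lowest value was that of Dot1l(fl/+) replicate 2, and the genotypes overlapped. Relative to controls, the log2 fold change was −0.05 with 1 floxed allele (95% interval −0.19 to 0.08, edgeR unadjusted p = 0.406) and −0.03 with 2 (95% interval −0.16 to 0.11, edgeR unadjusted p = 0.663). With Dot1l(fl/+) replicate 2 as the lone library of its genotype, the former was −0.21 (edgeR unadjusted p = 0.00804, adjusted p = 0.140), and without that library it was 0.02. A truncated form of TrkB is known to be abundant in astrocytes. The summed level of the astrocyte markers was 4262 to 4651 CPM in controls, 4049 to 4590.3 CPM in Dot1l(fl/+) and 4334 to 4549 CPM in Dot1l(fl/fl), and it was 4590.3 CPM in Dot1l(fl/+) replicate 2.

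Ntrk3 (ENSMUSG00000059146, GRCm38 chr7:78175959-78738012, minus strand, 20 annotated transcripts) encodes TrkC, the receptor of neurotrophin 3. It was at 219, 224 and 226 CPM in controls, at 214, 200 and 177 CPM with 1 floxed allele, and at 217, 227 and 223 CPM with 2. All Dot1l(fl/+) libraries lay below all libraries of the other genotypes. Controls and Dot1l(fl/fl) overlapped, with means of 223 ± 3.48 and 222 ± 4.87 CPM, and the mean in Dot1l(fl/+) was 197 ± 19.1 CPM (SD, n = 3).

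For Ntrk3 the Dot1l(fl/+) libraries differed from controls by a log2 fold change of −0.18, or −11.7% (SE 0.0622, 95% interval −0.31 to −0.05, edgeR unadjusted p = 0.0126, adjusted p = 0.541). With 2 floxed alleles it was −0.005 (95% interval −0.14 to 0.13, edgeR unadjusted p = 0.943). Between the floxed genotypes the level was higher in Dot1l(fl/fl) by 0.17 on the log2 scale, or 12.9% (SE 0.0622, 95% interval 0.04 to 0.31, edgeR unadjusted p = 0.0146, adjusted p = 0.726). Both differences depended on Dot1l(fl/+) replicate 3, one of the libraries with hypothalamic genes, where the Ntrk3 level was lowest. Without it they were −0.11 (edgeR unadjusted p = 0.0655) and 0.10 (edgeR unadjusted p = 0.0759). Without Dot1l(fl/+) replicates 1 and 3 together they were −0.16 and 0.15 (edgeR unadjusted p = 0.0208 and 0.0242), with the lone Dot1l(fl/+) library assumed to vary like the other groups.

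Markers of other cells also varied between these genotypes. All 7 markers of mural and meningeal cells had a log2 fold change below 0 in Dot1l(fl/+) against controls (median −0.19) and above 0 between the floxed genotypes (median 0.17), with an unadjusted edgeR p-value under 0.05 for 1 and 0 of them, and their sums of 276 to 296 CPM in controls, 242 to 288 CPM in Dot1l(fl/+) and 259 to 315 CPM in Dot1l(fl/fl) overlapped. The 6 markers of GABA neurons summed to 1076 to 1122 CPM in Dot1l(fl/+) and to 1139.6 to 1183 CPM in Dot1l(fl/fl), without overlap, and to 1089 to 1177 CPM in controls, with 3 of 6 below 0 in Dot1l(fl/+). Of 8 oligodendrocyte markers, 6 were above 0 in Dot1l(fl/+) against controls, with a median of 0.10. An unadjusted edgeR p-value under 0.05 was found for 3 of the 8, all higher, beside 4.3% of all genes higher. Between the floxed genotypes 7 were below 0, with a median of −0.13. There 5 of the 8 were under that limit, all lower, beside 2.87% of all genes lower. The part of these cells in the Ntrk3 difference was not tested.

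Ngfr (ENSMUSG00000000120, GRCm38 chr11:95568818-95587735, minus strand) encodes the p75 receptor and had 58 to 90 counts per library. It was at 3.78, 3.39 and 3.16 CPM in controls, at 2.94, 3.11 and 3.43 CPM with 1 floxed allele, and at 2.80, 2.73 and 3.52 CPM with 2. The genotypes overlapped. With 1 floxed allele the log2 fold change from controls was −0.12 (95% interval −0.46 to 0.22, edgeR unadjusted p = 0.457) and with 2 it was −0.20 (95% interval −0.55 to 0.14, edgeR unadjusted p = 0.230). Schwann cells and cholinergic neurons are known to express Ngfr. Of 4 Schwann cell markers, 1 was at 0 in every library. Their sum was 2.44 to 2.79 CPM in controls, 2.37 to 3.21 CPM with 1 floxed allele and 2.89 to 4.40 CPM with 2, so that the Dot1l(fl/fl) libraries lay above the controls, and all 3 tested markers had a log2 fold change above 0 there, with a median of 0.39. The 6 markers of cholinergic and motor neurons summed to 7.17 to 8.61 CPM in controls, to 8.62 to 10.7 CPM with 1 floxed allele and to 7.08 to 10.4 CPM with 2. The Dot1l(fl/+) libraries thus lay above the controls, by a narrow margin, and all 5 tested markers had a log2 fold change above 0 there, with a median of 0.35. The part of both cell types in the Ngfr values was not tested.

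Bdnf (ENSMUSG00000048482, GRCm38 chr2:109674700-109727007, plus strand, 11 annotated transcripts) encodes the brain-derived neurotrophic factor. It was at 31.8, 36.3 and 35.7 CPM in controls, at 31.5, 37.8 and 30.6 CPM with 1 floxed allele, and at 37.1, 41.1 and 41.1 CPM with 2. All 3 Dot1l(fl/fl) libraries lay above every control but overlapped the Dot1l(fl/+) libraries. The means were 34.6 ± 2.47, 33.3 ± 3.93 and 39.8 ± 2.27 CPM (SD, n = 3).

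For Bdnf the Dot1l(fl/fl) libraries differed from controls by a log2 fold change of 0.20, or 14.7% (SE 0.0882, 95% interval 0.01 to 0.39, edgeR unadjusted p = 0.0421, adjusted p = 0.999), and the Dot1l(fl/+) libraries by −0.06 (95% interval −0.25 to 0.13, edgeR unadjusted p = 0.537). Bdnf was also higher in Dot1l(fl/fl) than in Dot1l(fl/+) by 0.25, or 19.3% (SE 0.0879, 95% interval 0.06 to 0.44, edgeR unadjusted p = 0.0124, adjusted p = 0.726). In edgeR the first value was no longer under an unadjusted 0.05 without control replicate 1 (0.14, unadjusted p = 0.165), control replicate 3 (0.22, unadjusted p = 0.051), Dot1l(fl/fl) replicate 2 (0.18, unadjusted p = 0.111) or Dot1l(fl/fl) replicate 3 (0.18, unadjusted p = 0.103). The difference between the floxed genotypes was 0.20 without Dot1l(fl/+) replicate 3 (edgeR unadjusted p = 0.0553) and 0.07 without Dot1l(fl/+) replicates 1 and 3 (edgeR unadjusted p = 0.486). The gene Gm45346, which overlaps Bdnf on the other strand, was not analysed here. The libraries were strand-marked, but the strand setting of the counting is not given in the sources used here, so the Bdnf counts may include reads of that gene.

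Bdnf is known to be expressed in excitatory neurons of the cortex and hippocampus, and the markers of these regions varied between libraries. A list of 5 such markers summed to 90.4 to 125 CPM in controls, to 90.0 to 127 CPM in Dot1l(fl/+) and to 138, 136 and 96.5 CPM in Dot1l(fl/fl). For 2 floxed alleles 3 of the 5 had a log2 fold change above 0, with a median of 0.12. An unadjusted edgeR p-value under 0.05 was found for 1 of the 5, which was higher, beside 2.21% of all genes higher. The 3 markers of glutamate neurons summed to 711 to 742 CPM in controls and to 705 to 829.8 CPM in Dot1l(fl/fl). In the Dot1l(fl/fl) libraries with 138, 136 and 96.5 CPM of the cortex and hippocampus markers, Bdnf was at 37.1, 41.1 and 41.1 CPM. In the Dot1l(fl/+) libraries with 90.0, 127 and 97.9 CPM it was at 31.5, 37.8 and 30.6 CPM. In the controls with 90.4, 92.8 and 125 CPM it was at 31.8, 36.3 and 35.7 CPM. The part of these cells in the Bdnf difference was not tested.

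For 3 of the 7 genes the Dot1l(fl/fl) libraries did not overlap the controls (Ret and Gfra1 lower, Bdnf higher), beside 10.3% of all genes, 5.25% lower and 5.03% higher. In Dot1l(fl/+) this held for Ntrk3 alone, beside 13.3% of all genes, 6.47% lower and 6.84% higher. Between the floxed genotypes it held for Ntrk3 alone, beside 11.1%, of which 5.14% were lower and 5.98% higher. The 7 genes had a median log2 fold change of −0.06 with 1 floxed allele and −0.03 with 2, beside −0.003 and 0.001 over all genes tested.

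**Figure D3:**
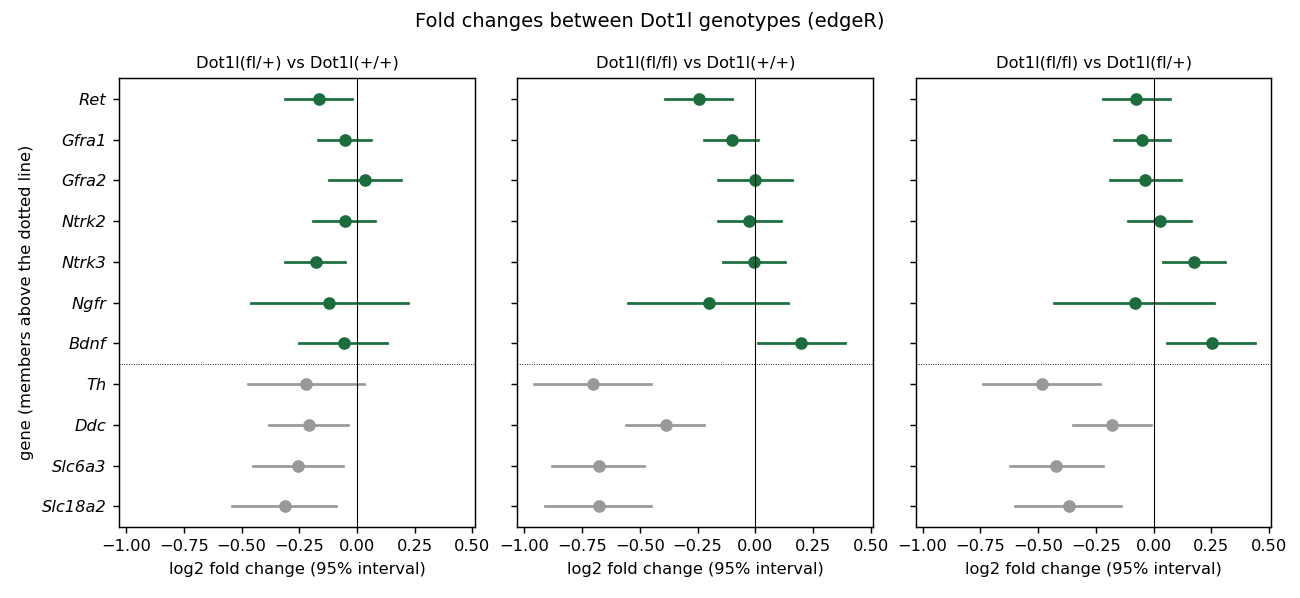
Log2 fold changes from edgeR with 95% intervals for the 7 receptor and ligand genes (green) and 4 dopamine transmitter genes (grey) in 3 comparisons of Dot1l genotypes. In Dot1l(fl/fl) against Dot1l(+/+) the interval of Ret reaches from −0.39 to −0.10 and that of Bdnf from 0.01 to 0.39, while the grey points lie between −0.71 and −0.39.

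Ret, Gfra1 and Ntrk3 are expressed by midbrain DA neurons, and their levels were set against those of genes for dopamine synthesis, transport and storage in the same libraries. In Dot1l(fl/fl) the log2 fold changes of these 4 genes were −0.71 for Th, −0.39 for Ddc, −0.68 for Slc6a3 and −0.68 for Slc18a2 (edgeR adjusted p = 0.248, 0.970, 0.0906 and 0.197). By p-value they ranked 3, 5, 1 and 2 of all genes, and they were chosen with these results known. Their mean log2 CPM was lower by 0.61 in Dot1l(fl/fl) than in controls, so a gene with no difference of its own reaches about this value relative to them. For each library the mean log2 CPM of the 4 genes was subtracted from the log2 CPM of the receptor. This relative level of Ret was 0.48, 0.47 and 0.43 in controls, at 0.53, 0.36 and 0.77 with 1 floxed allele, and at 0.87, 0.79 and 0.82 with 2. All Dot1l(fl/fl) libraries lay above all others, by a mean of 0.37 over controls, which is 1.29-fold. With all 12 DA markers as the reference this difference was 0.235.

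The relative level of Gfra1 was −0.44, −0.24 and −0.19 in controls, at −0.24, −0.16 and 0.14 with 1 floxed allele, and at 0.19, 0.24 and 0.22 with 2. That of Ntrk3 was 1.12, 1.27 and 1.38 in controls, at 1.36, 1.20 and 1.45 with 1 floxed allele, and at 1.83, 1.93 and 1.83 with 2. With 2 floxed alleles both lay above the other genotypes in all 3 libraries, and the means were higher than in controls by 0.51 for Gfra1 (1.42-fold) and by 0.60 for Ntrk3 (1.52-fold). Against all 12 DA markers the differences were 0.374 and 0.471. The value for Ntrk3, whose own log2 fold change was −0.005, is thus that of the reference genes. Their mean was lower by 0.61 in Dot1l(fl/fl), so genes with no difference of their own would also tend to lie above controls. The share of all genes that do so on this scale is not given here, and the separation is not particular to these receptors. The difference between Dot1l(fl/fl) and controls had an exact permutation p = 0.1 for each of the 3 receptors (two-sided, n = 3 against 3, adjusted p = 0.15 over 9 comparisons), and 0.1 is the smallest p-value that these groups allow. The reference genes were chosen with their lower levels in Dot1l(fl/fl) known, so a gene with no difference of its own would be likely to reach it too. This test therefore cannot tell whether a receptor itself differed. In Dot1l(fl/+) the libraries overlapped the controls, with differences of 0.10 for Ret, 0.21 for Gfra1 and 0.08 for Ntrk3 (exact permutation p = 0.7, 0.2 and 0.6). These differences depended on single libraries. With 1 Dot1l(fl/+) library left out, that of Ret was −0.012 (replicate 3) or 0.193 (replicate 2). That of Gfra1 was 0.093 without Dot1l(fl/+) replicate 3 and 0.132 without control replicate 1, and reached 0.281 without Dot1l(fl/+) replicate 1. That of Ntrk3 was 0.009 without control replicate 1 and 0.018 without Dot1l(fl/+) replicate 3, and 0.135 and 0.145 without control replicate 3 and Dot1l(fl/+) replicate 2. With only replicate 2 of Dot1l(fl/+) these differences were −0.097, 0.132 and −0.061, with no test.

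**Figure D4:**
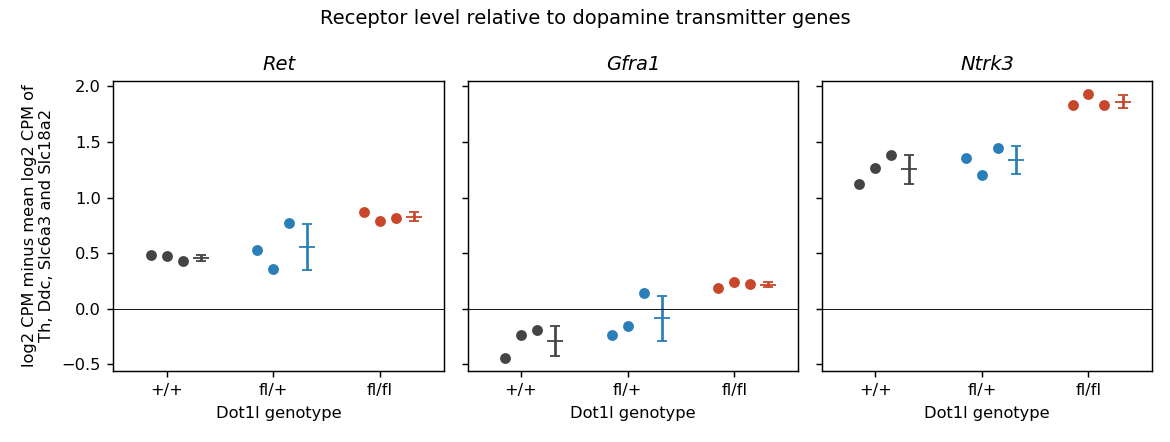
Log2 CPM of Ret, Gfra1 and Ntrk3 minus the mean log2 CPM of Th, Ddc, Slc6a3 and Slc18a2 in each library, with dots for replicates 1 to 3 from left to right and bars for the mean ± SD (n = 3). For each receptor the 3 Dot1l(fl/fl) libraries lie above the other libraries, for Ret at 0.79 to 0.87 against 0.43 to 0.48 in controls.

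The other genes of both systems were followed through 5 lists. Of 10 further GDNF family ligands, co-receptors and receptors, 5 were tested, and none reached an unadjusted p-value under 0.05 with edgeR in any comparison. Without Dot1l(fl/+) replicates 1 and 3, 1 of 6 tested genes did so in Dot1l(fl/+) against controls, beside 16.3% of all genes, namely Ncam1, which encodes a cell adhesion molecule that binds GDNF (−0.36, edgeR unadjusted p = 0.000347, adjusted p = 0.0409). With all 3 libraries Ncam1 was at −0.09 (edgeR unadjusted p = 0.351). Gdnf itself had 4 to 11 counts per library, or 0.153 to 0.435 CPM, and was tested only in the fit without these libraries, with log2 fold changes from controls of 0.17 for 1 floxed allele and 0.15 for 2 (edgeR unadjusted p = 0.809 and 0.777). Gfra3, the artemin co-receptor, had 0 counts in all libraries, which allows a level of up to 0.106 to 0.183 CPM for 3 counts in a library, a bound that covers counting error only. Gfra4, the persephin co-receptor, was at 25.1 to 30.1 CPM, with log2 fold changes from controls of 0.12 for 1 floxed allele and 0.10 for 2 (edgeR unadjusted p = 0.155 and 0.219). Nrtn, which encodes neurturin, was at 1.04 to 3.70 CPM, with a log2 fold change of 0.42 in Dot1l(fl/+) (edgeR unadjusted p = 0.249), which was −0.16 without replicates 1 and 3 (edgeR unadjusted p = 0.690). Sdc3, a syndecan that binds GDNF, was at 263 to 297 CPM, with a log2 fold change of −0.08 in Dot1l(fl/fl) (95% interval −0.18 to 0.03, edgeR unadjusted p = 0.155).

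Of 17 neurotrophins, other neurotrophin receptors, sorting receptors and processing enzymes, 16 were tested. Sorcs3, a sorting receptor of the sortilin family, had a log2 fold change of 0.15 in Dot1l(fl/+) against controls (SE 0.0675, edgeR unadjusted p = 0.048, adjusted p = 0.591), which was 0.10 without replicates 1 and 3 (edgeR unadjusted p = 0.293). In Dot1l(fl/fl) against controls none of the 16 had an unadjusted p-value under 0.05, and the lowest was that of Cpe, which encodes carboxypeptidase E (0.08, edgeR unadjusted p = 0.131). The list had a median log2 fold change of −0.01 with 1 floxed allele and 0.03 with 2.

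All 42 adaptors and kinases downstream of Ret, the Trk receptors and p75 were tested. In Dot1l(fl/+) 3 were higher and 3 lower at an unadjusted edgeR p-value under 0.05, beside 4.3% and 4.09% of all genes, with adjusted p-values of 0.541 for each. The higher genes were the small GTPase gene Hras (0.24), the p75 adaptor gene Bex3 (0.18) and Arhgdia (0.13). The lower genes were the docking protein gene Frs2 (−0.18) and the Ras activator genes Sos1 (−0.17) and Sos2 (−0.18). Without replicates 1 and 3 these 6 genes kept their direction and an unadjusted edgeR p-value under 0.05, and 4 genes of the list were higher and 7 lower at that limit, beside 7.65% and 8.68% of all genes. Of the 42 genes 1 then passed an adjusted p-value of 0.05, as did 247 of all genes. This was Pik3r1, which encodes a regulatory subunit of PI3K (−0.32, edgeR adjusted p = 0.0226), and between the floxed genotypes it was at 0.26 (edgeR adjusted p = 0.0458). These values rest on 1 Dot1l(fl/+) library, and with all 3 they were −0.13 (edgeR unadjusted p = 0.0626, adjusted p = 0.611) and 0.07 (edgeR unadjusted p = 0.297). Against controls, none of the 42 in Dot1l(fl/fl) had an unadjusted p-value under 0.05, and the lowest were those of Hras (0.15, edgeR unadjusted p = 0.0693) and Sos1 (−0.10, edgeR unadjusted p = 0.101). Between the floxed genotypes Frs2 (0.17) and Sos2 (0.15) were higher in Dot1l(fl/fl), at unadjusted edgeR p-values of 0.0273 and 0.0228 (adjusted p = 0.733 for both), beside 3.6% of all genes higher at an unadjusted 0.05. Over the 42 genes the median was 0.0 with 1 floxed allele and 0.01 with 2.

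Of 11 feedback inhibitors and ETS transcription factors that respond to Ras-MAPK signalling, Etv4 was the only gene with an unadjusted edgeR p-value under 0.05. Etv4 was at 10.2, 9.19 and 9.51 CPM in controls and at 11.5, 11.2 and 11.7 CPM in Dot1l(fl/fl), without overlap (log2 fold change 0.25, SE 0.0981, edgeR unadjusted p = 0.0231, adjusted p = 0.999). In Dot1l(fl/+) the list had no such gene and the lowest p-value was that of Dusp6, a MAPK phosphatase (0.18, edgeR unadjusted p = 0.129), followed by the ETS factor gene Etv1 (−0.10, edgeR unadjusted p = 0.311). Without replicates 1 and 3, Dusp6 was at 0.45 (edgeR unadjusted p = 0.00115, adjusted p = 0.0620), Etv1 was at 0.17 and 4 of the 11 genes were higher at an unadjusted p-value under 0.05, beside 7.65% of all genes. Etv1 was then lower in Dot1l(fl/fl) than in Dot1l(fl/+), with a log2 fold change of −0.36 (edgeR adjusted p = 0.0211), which was −0.09 with all 3 Dot1l(fl/+) libraries (edgeR unadjusted p = 0.356).

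The 11 genes that respond to neuronal activity and to Bdnf spread most widely within Dot1l(fl/+). Their summed level was 429 to 441 CPM in controls, 385 to 578 CPM in Dot1l(fl/+) and 408 to 442 CPM in Dot1l(fl/fl). Fosb, an immediate early transcription factor, was at 4.92, 4.29 and 3.68 CPM in controls and at 6.00, 5.65 and 6.31 CPM in Dot1l(fl/fl). The log2 fold change was 0.48 (SE 0.208, edgeR unadjusted p = 0.0375, adjusted p = 0.999). Fosb was the only 1 of the 11 genes with an unadjusted p-value under 0.05 there, beside 3.93% of all genes, 2.21% higher. Of the 11 genes, 6 had a log2 fold change below 0 in Dot1l(fl/fl), with a median of −0.03. With replicate 2 as the lone Dot1l(fl/+) library, 9 of the 11 were higher than in controls at an unadjusted edgeR p-value under 0.05, beside 7.65% of all genes, with a median log2 fold change of 0.65, against 0 of 11 and a median of 0.12 with all 3 libraries. Of the 11, Arc, Fos, Junb, Egr1 and Nr4a1 then had adjusted edgeR p-values of 0.0209 to 0.0491, from this 1 library, and with all 3 libraries their log2 fold changes were 0.12 to 0.26 (edgeR unadjusted p = 0.311 to 0.609). Vgf, which encodes a neuropeptide precursor, was lower in Dot1l(fl/fl) than in Dot1l(fl/+) by 0.21 (edgeR unadjusted p = 0.0234, adjusted p = 0.733), a difference of −0.07 without replicates 1 and 3. The list moved the other way. Its median log2 fold change in this comparison was −0.21 with all libraries and −0.66 with replicate 2 as the lone Dot1l(fl/+) library.

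**Figure D5:**
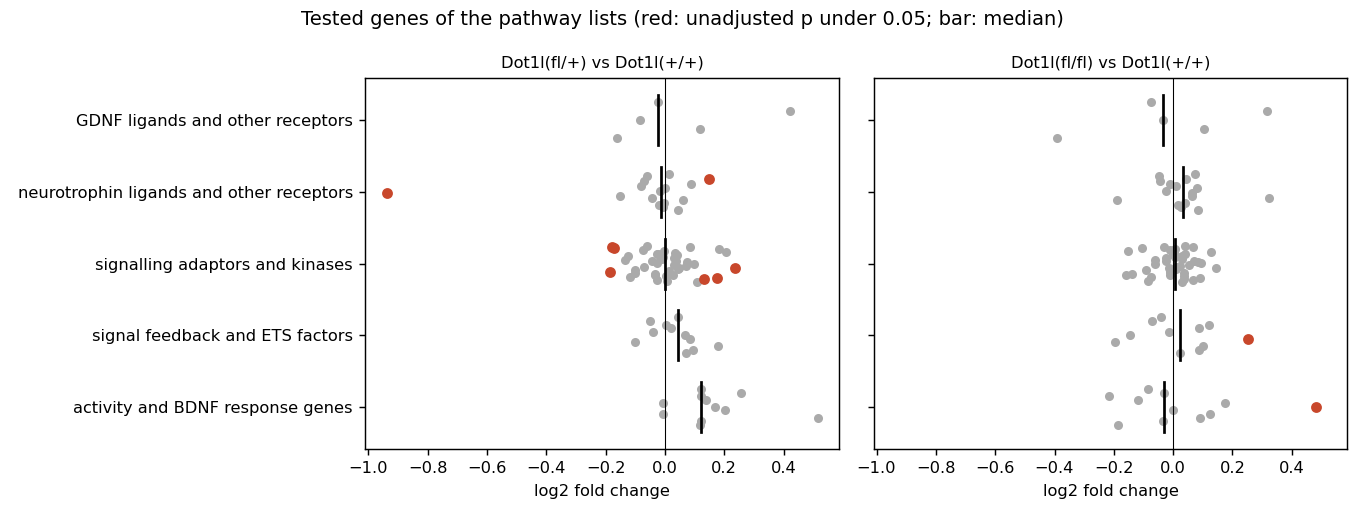
Log2 fold changes from edgeR of the tested genes in 5 lists, with 1 dot per gene, red for an unadjusted p-value under 0.05 and a black bar for the median of the list. The medians lie between −0.02 and 0.12 with 1 floxed allele and between −0.04 and 0.03 with 2.

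Genes with a pattern like that of each receptor were named by the Pearson correlation of log2 CPM over the 9 libraries, which differ in genotype, dissection and depth, among 13175 other genes with a mean of at least 80 counts (13176 for Ngfr). The 3 most like Ret were Atp10a (r = 0.959), Ptpn21 (r = 0.945) and Fchsd1 (r = 0.932). Among the dopamine genes, Slc6a3 ranked 24 (r = 0.839), Ddc 27 (r = 0.832), Th 31 (r = 0.830) and Slc18a2 60 (r = 0.791) in likeness to Ret. For Gfra1 they were Scn4b (r = 0.963), Fbxo42 (r = 0.940) and Shld2 (r = 0.919), and for Gfra2 they were Sema4f (r = 0.966), Ubxn10 (r = 0.958) and Slc35f3 (r = 0.946). Ntrk2 was most like Hdac7 (r = 0.976), Scrn1 (r = 0.972) and Tnks (r = 0.971), and Ntrk3 most like Gcnt2 (r = 0.975), Chd1 (r = 0.962) and Prpf39 (r = 0.961). Ngfr was most like Piezo1 (r = 0.923), Rhbdf1 (r = 0.917) and Ighmbp2 (r = 0.904). For Bdnf they were Csnk1g3 (r = 0.955), Exosc8 (r = 0.937) and Gt(ROSA)26Sor (r = 0.935), the transcript of the locus that carries the reporter in these mice. Ret and Gfra1 themselves had r = 0.412, and Ntrk2 and Bdnf r = −0.408. They are given as a description of these libraries.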

How the data were processed

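RNA was measured in 9 libraries, 3 per genotype, assigned by the genotype in the labels. The authors pooled dissections, prepared strand-marked libraries for a NextSeq instrument and deposited unnormalised counts for each Ensembl gene on the GRCm38.p4 build. Per the labels, the tools were bcl2fastq 2.17, Trimmomatic 0.30 and DESeq2 1.10.1. The aligner, counting tool, strand setting and annotation release are not given in the sources used here. Deposited comparisons by the authors, which hold fold changes and p-values, were not used.

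Of 47729 identifiers, 47224 matched GENCODE M21 (GRCm38) and held 99.91% of counts. Totals were 16422135 to 28403218 per library. Counts were tested with edgeR 4.0.16 in R 4.3.3 (filterByExpr, TMM, quasi-likelihood, 1 fit of 9 libraries with genotype as the only factor, Benjamini-Hochberg over 17671 genes), and with a slope over the number of floxed alleles. The common biological coefficient of variation was 8.81%. Log2 CPM had a prior count of 2. Intervals are at 95%. Relative levels were tested with exact permutation tests (scipy 1.17.1). The labels give no batch or date. The steps were tested on simulated data.

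The 7 genes and the gene and marker lists were chosen with earlier results of these data known. Genes named beside the 7 were, per pathway list, those with an unadjusted p-value under 0.05 or else the 2 with the lowest, and the 3 most like each of the 7. Gdnf, Gfra3, Dot1l, Pmch, Gm16277 and the list genes given only from the fit without Dot1l(fl/+) replicates 1 and 3 were named after their values were seen. Some genes that this rule names are not reported here. Alternatives were DESeq2 1.42.0 on all libraries or on the 2 groups compared, DESeq2 size factors, no filter on low counts, edgeR on the 2 groups, the replicate number as a block, and each library left out. For relative levels they were a prior count of 0.5, no TMM, and other reference genes. The fit without Dot1l(fl/+) replicates 1 and 3 was added after the data were seen.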

Additional observations from a re-analysis of the deposited data

How the results depend on the processing

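The direction of Ret (lower in both floxed genotypes), Gfra1 in Dot1l(fl/fl) and Bdnf in Dot1l(fl/fl) was the same under each alternative run. Counts of all genes past an adjusted p-value of 0.05, which were 0, moved. In Dot1l(fl/+) against controls they were 7 and 42 with DESeq2 on all libraries and on the 2 groups, 251 without the filter, 1 with edgeR on the 2 groups and 247 without Dot1l(fl/+) replicates 1 and 3. In Dot1l(fl/fl) against controls they were 3, 8, 118, 4 and 4 in the same order, and 1 of the 7 genes, Ret, passed without the filter. Between the floxed genotypes they were 14, 8, 164 and 189, without a move for edgeR on the 2 groups, and for the trend 5 with DESeq2, 4 without the filter and 2 without Dot1l(fl/+) replicates 1 and 3. With 1 library left out these counts were 0 to 5, 0 to 4, 0 to 12 and, for the trend, 0 to 3, and the number of the 7 genes with an unadjusted p-value under 0.05 was 0 to 2 in Dot1l(fl/+), 1 to 3 in Dot1l(fl/fl), 0 to 2 between them and 1 to 2 in the trend.

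With the replicate number as a block, 3 genes passed in Dot1l(fl/fl), 3 between the floxed genotypes and 3 in the trend, none of them among the 7, and no pairwise call of the 7 changed, while Bdnf was added to Ret at an unadjusted p-value under 0.05 in the trend, as it also was without the filter, without control replicate 2 or 3, and when replicate 3, or replicates 1 and 3, of Dot1l(fl/+) were left out. Deviations of libraries with the same number correlated at 0.0222 to 0.317, with 6 of 9 pairs over 0.1, and those with different numbers at −0.267 to 0.108, with 2 of 18 over 0.1. Not every library correlated best with its own number. The study's methods describe pools paired by nest, but the labels do not say that equal numbers mark such a pair, so the fit without the block is the one reported.

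Log2 values near 0 changed sign. Against all 12 DA markers the relative level in Dot1l(fl/+) was −0.004 for Ret and −0.024 for Ntrk3, and that of Ret was −0.012 to 0.193 with 1 library left out, beside 0.093 to 0.281 for Gfra1 and 0.009 to 0.145 for Ntrk3. With 1 library left out, fold changes in Dot1l(fl/+) were −0.101 to 0.017 for Ntrk2, −0.028 to 0.107 for Gfra2 and −0.158 to 0.002 for Bdnf. In Dot1l(fl/fl) they were −0.019 to 0.027 for Gfra2 and −0.018 to 0.014 for Ntrk3. Between the floxed genotypes they were −0.045 to 0.073 for Ntrk2 and −0.109 to 0.026 for Gfra2, and trends were −0.012 to 0.016 for Gfra2 and −0.021 to 0.015 for Ntrk3. Without Dot1l(fl/+) replicates 1 and 3, the relative level there was −0.097 for Ret and −0.061 for Ntrk3, and fold changes also moved. Gfra1 was at 0.035, Gfra2 at −0.117 and Bdnf at 0.126 in Dot1l(fl/+), and Gfra2 at 0.115 between the floxed genotypes. The cause of these moves was not tested.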

Other observations

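The remaining cell type markers are given as summed CPM. Microglial markers summed to 228 to 243 in controls and to 252 to 273 in Dot1l(fl/fl), which did not overlap, while the Dot1l(fl/+) libraries lay at 226 to 266. Over the 9 libraries, endothelial markers summed to 199 to 222 and oligodendrocyte precursor markers to 268 to 312, with overlap between all 3 genotypes. Serotonin neuron markers summed to 1.22 to 12.6, with the lowest and the highest library both in Dot1l(fl/+).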
